A study of Mus musculus with 3 samples.

Results

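The numbered zinc finger proteins are the mouse genes whose symbol is Zfp followed by digits only. Of 364 such genes with a protein-coding transcript, leaving out Zfp36, 145 (39.8%) were detected, which here means a TPM (a level scaled to transcript length and library total) of at least 1 in each of 3 libraries. The same threshold was passed by 7860 of all 21901 genes with a protein-coding transcript, a background of 35.9%. The 145 members were chosen by these TPM values, so their detection and levels are given as a description with no test. Zfp36 is left out because it carries another kind of zinc finger, which binds RNA.

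The libraries were total RNA-seq of RNA from the chromatin fraction of bone-marrow-derived macrophages from C57BL/6J mice, and the cells had received 100 ng/ml Lipid A for 60 minutes. Toll-like receptor 4 senses Lipid A, the membrane anchor of lipopolysaccharide, and the chromatin fraction is rich in nascent and partly processed transcripts. There was 1 group, with biological replicates 1, 2 and 3 made from 1 µg, 250 ng and 500 ng of RNA in that order, and no unstimulated library was analysed here, so no value below is a response to Lipid A. The labels gave all replicates the same donor entry and did not name separate animals, and age and sex were not collected, so the spread between libraries may be technical.

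Most of these proteins carry an array of C2H2 zinc fingers, small domains that each hold a zinc ion through a pair of cysteines and a pair of histidines and read a few bases of DNA. Neighbouring fingers are joined by a short conserved linker. Many members of the family also carry a KRAB box, which recruits the corepressor TRIM28 (KAP1), and through it the histone methyltransferase SETDB1, to silence retroelements and imprinted genes, while others act at promoters, in corepressor complexes or on RNA.

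The linker is a stretch of coding sequence that most members share. An exact match to the linker consensus was found in the translated coding sequence of 96 members (66.2%), of 178 of the 219 numbered Zfp genes that were not detected (81.3%) and of 68 of the 7715 other detected coding genes (0.881%). Members held 526 such linkers, with a median of 5 in those with any and 16 at most, in Zfp950. The linkers were spelled in 128 ways at the DNA level, and the commonest, ACAGGAGAGAAACCC, made up 12.7% of them. The first linker of 4 members and of a pair with the same coding sequence is given here, 5′ to 3′ on the coding strand, with the linker codons in capitals and 24 bases of the adjoining fingers on each side, from the GENCODE M21 transcripts. The 4 were picked to show linker codons and flanks that differ between genes, and the pair to show a case with no difference. Linkers were found by an exact match, so the residues they encode are the same by design.
Zfp263 (chr16:3744093-3750790, plus strand): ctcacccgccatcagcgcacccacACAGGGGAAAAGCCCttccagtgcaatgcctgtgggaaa
Zfp62 (chr11:49203292-49218816, plus strand): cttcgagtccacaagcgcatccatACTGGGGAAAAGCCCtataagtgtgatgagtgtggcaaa
Zfp658 (chr7:43562256-43575461, plus strand): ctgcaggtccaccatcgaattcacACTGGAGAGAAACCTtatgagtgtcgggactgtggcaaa
Zfp26 (chr9:20428449-20460162, minus strand): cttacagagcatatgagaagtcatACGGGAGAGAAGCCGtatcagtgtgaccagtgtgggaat
Zfp966 (chr2:175918881-175931100, minus strand): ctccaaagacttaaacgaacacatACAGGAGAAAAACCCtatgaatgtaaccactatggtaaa
Zfp968 (chr2:175372436-175384201, plus strand): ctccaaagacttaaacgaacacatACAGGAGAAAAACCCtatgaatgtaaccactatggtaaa
The coordinates are those of the whole gene in mm10. The stretches of Zfp966 and Zfp968 were the same, and so were their whole coding sequences, with 0 differences over 1455 bases.

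The other near-identical pair, Zfp991 and Zfp992, differed at 8 of 1719 coding bases. Reads of these genes can be told apart only where they cover such a base or lie outside the shared sequence. A stretch of bases 119 to 181 of both coding sequences, counted from the first base of the start codon, holds 1 of these differences, in capitals.
Zfp991 (chr4:147132038-147180579, plus strand): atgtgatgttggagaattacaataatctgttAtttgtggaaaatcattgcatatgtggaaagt
Zfp992 (chr4:146449023-146470292, plus strand): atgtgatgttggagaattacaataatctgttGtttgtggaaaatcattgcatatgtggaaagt
Levels of these 4 genes are therefore uncertain, as are those of the other members with much shared sequence. The share of a gene's 31-base words that also occur in transcripts of another gene had a median of 2.92% in members and 1.87% in the other detected coding genes, and 10 members shared 50% or more.

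Expected counts assigned to genes totalled 13312747, 15346116 and 15806028 in replicates 1, 2 and 3. All 12 macrophage markers were detected, with a summed level of 996 to 1286 TPM in the 3 libraries, while none of 6 T cell, 6 B cell, 6 neutrophil and 6 fibroblast markers passed the threshold. The highest summed level among those 4 lists was 1.96 TPM, for T cells, although the second quantification, described further below, put the T cell list at 33.2 to 43.6 TPM, the macrophage list at 1559 to 1688 TPM and each of the other lists at 7.97 TPM or less. Members took 0.589% ± 0.0459 of the counts (SD, n = 3). Their expected counts ran from 9 to 16453, and the median member had a mean of 222 counts per library. In 16 members at least 1 library had fewer than 50 counts. Fewer cells with a transcript and less RNA of it per cell cannot be told apart in these bulk libraries.

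Fewer of the numbered Zfp genes with a KRAB-like match were detected than of those without it. A KRAB-like match was found in 62 of the 145 members (42.8%) and in 39 of the 7715 other detected coding genes (0.506%). Among all numbered Zfp genes with a coding transcript, 62 of 212 with the match were detected (29.2%), and 83 of 152 without it (54.6%), against the background of 35.9% for all coding genes. Shared sequence, measured as above, had a median of 7.88% in members with the match and 2.14% in members without it. All 10 members that shared 50% or more held the match. The part of shared sequence in the differences between these classes, here and below, was not tested. By the second quantification a further 86 numbered Zfp genes passed the threshold, and their split by the match is not given. The match is a sequence pattern searched for in the translations of all coding transcripts of a gene, and a gene without it may still hold a divergent KRAB box. Members carried a median of 9 C2H2 matches and the numbered Zfp genes that were not detected a median of 11. The members with a KRAB-like match had a median of 12 C2H2 matches and the members without it 7. Zfp142 held the most, 36, followed by Zfp619 with 33 and Zfp236 with 30. Zfp330, Zfp703, Zfp839 and Zfp972 held 0, so these 4 members carry the family's name without a match to the finger pattern in the translation used.

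Zfp263 stood far above the other members. It had 277, 342 and 275 TPM in replicates 1, 2 and 3, from 14811, 16453 and 13516 expected counts. Its human counterpart, ZNF263, is a DNA-binding protein with C2H2 fingers among its domains. Zfp263 had no KRAB-like match and counts here among the members without it, although it may still hold a divergent KRAB box. The 3 libraries gave 298 TPM ± 38.0 (SD, n = 3), which was 4.17 to 4.95 times the next highest member of the same library and ranked 91 of the 7860 detected coding genes. The gene alone held 16.6% to 20.1% of the summed TPM of members, and no other annotated gene overlaps it.

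The next members lay between 34.3 and 62.0 TPM on average. Zfp638, a nuclear protein that binds RNA and DNA and silences retroviral DNA together with the HUSH complex, had 59.0, 60.9 and 66.0 TPM. Zfp131, which has a BTB domain, had 51.2, 69.1 and 63.5 TPM. Zfp207 (BuGZ), which loads Bub3 on the spindle and kinetochores, had 46.2, 56.5 and 50.7 TPM. These 3 members overlapped in their ranges over the libraries, apart from Zfp638 and Zfp207, whose libraries did not overlap. Zfp407, a nuclear protein studied in fat cells, had 44.5, 53.9 and 53.3 TPM, and Zfp62, a protein with 25 C2H2 matches, had 39.9, 55.9 and 45.3 TPM. Zfp655, with a KRAB-like match, had 34.5, 59.5 and 43.0 TPM, and Zfp445, a KRAB protein that maintains genomic imprints, had 28.7, 51.6 and 37.9 TPM. In both of them replicate 2 was the highest library and replicate 1 the lowest. Zfp384, a nuclear matrix transcription factor, had 29.9, 46.4 and 33.5 TPM, and Zfp800 had 33.2, 27.0 and 42.7 TPM. Zfp800 was the only one of these 10 that was lowest in replicate 2.

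**Figure D1:**
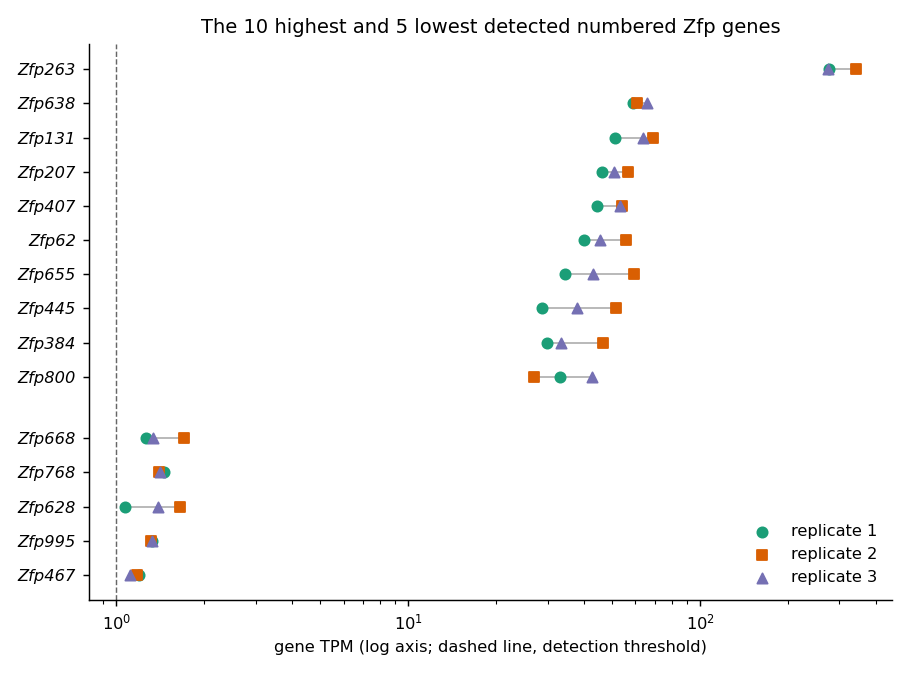
Gene TPM on a log axis of the 10 members with the highest and the 5 with the lowest mean, 1 symbol per library. Zfp263 lies at 275 to 342 TPM, and Zfp638, the next, at 59.0 to 66.0 TPM.

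Most members were low. Of the 145, 24 had a mean of 1 to under 2 TPM, 43 of 2 to under 5 TPM, 39 of 5 to under 10 TPM, 21 of 10 to under 20 TPM, 13 of 20 to under 50 TPM and 5 of 50 TPM or more. The median of the mean TPM was 5.21 in members and 8.25 in the other detected coding genes. Members with a KRAB-like match had a median of 4.75 TPM and members without it 5.63 TPM. Taken within each library, the median log2(TPM + 1) of members was 2.27, 2.82 and 2.57 in replicates 1, 2 and 3, against 2.97, 3.36 and 3.26 for the other detected coding genes. Members were thus the lower in all 3 libraries.

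In the gene table the lowest mean was that of Zfp467, which promotes fat cell formation in marrow stroma, at 1.19, 1.18 and 1.11 TPM. By the second quantification Zfp467 had 8.27, 10.4 and 7.24 TPM, and its mean of 8.64 TPM equalled the median of members there, so this rank holds for the gene table only. Zfp995 had 1.32, 1.31 and 1.32 TPM, Zfp628 had 1.07, 1.65 and 1.39 TPM, Zfp768 had 1.46, 1.40 and 1.41 TPM, and Zfp668 had 1.26, 1.70 and 1.33 TPM. At the threshold, the lowest library of Zfp710 was 1.01 TPM, of Zfp943 1.04, of Zfp628 1.07, of Zfp398 1.10 and of Zfp467 1.11. Just outside it, the lowest library of Zfp984 was 0.990 TPM, of Zfp90 0.960 and of Zfp287 0.950. That of Zfp758, Zfp994 and Zfp532 was 0.940 TPM each. All of these outside genes had at least 1 library above 1 TPM, so both sides of the threshold overlap in the other libraries.

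Of the 219 numbered Zfp genes that were not detected, 192 had counts in at least 1 library and 49 reached 1 TPM in 1 or 2 of the 3. The remaining 27 had a count that rounds to 0 in all libraries, which allows up to 0.225, 0.195 and 0.190 CPM (counts scaled to the library total) in replicates 1, 2 and 3. These limits are 3 counts of each library's total and cover counting error only.

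The members were then read by the roles they are known for, with levels from the gene table. Counts of detected genes stand beside the background of 35.9% of all coding genes. The lists were chosen by known role, so these counts are not a result about the roles. The second quantification was at least 2 times higher in 11 of the 34 detected genes of these lists (32.4%). Of 9 genes on the list of promoter and chromatin looping factors, 8 were detected, with a median of 4.95 TPM over the list. Zfp384 and Zfp131, given above, were the highest. Zfp410, which activates transcription of the remodeler gene Chd4, had 16, 22.5 and 21.9 TPM. Zfp281 and Zfp148, related factors that bind GC-rich promoters, had 5.14, 7.66 and 7.55 TPM and 4.62, 5.38 and 4.86 TPM. Replicate 1 was the lowest library in all 3 of these genes. Zfp143, an activator of small nuclear RNA and other promoters, had 2.59, 3.27 and 2.51 TPM. Zfp219, a Sox9 partner in cartilage, had 2.61, 3.34 and 4.0 TPM, and Zfp609, which works with the cohesin loader Nipbl, had 2.65, 3.27 and 3.08 TPM. These last 3 genes overlapped in their ranges. Zfp202 was below the threshold only in replicate 1, with 0.930, 1.73 and 1.33 TPM.

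Of 8 corepressor partners 5 were detected, with a list median of 5.84 TPM. The highest were Zfp516, which binds the corepressor CtBP, with 22.3, 29.8 and 23.9 TPM, and Zfp644, a partner of the histone methyltransferases G9a and GLP, with 16.2, 27.4 and 21.2 TPM. Zfp217, a partner of the LSD1 and CoREST complex, had 8.94, 7.88 and 13.1 TPM. The libraries of Zfp217 lay below those of both other genes. Zfp592, Zfp687 and Zfp532 form a module with Zmynd8. Zfp592 had 5.76, 5.14 and 7.35 TPM and Zfp687 had 4.84, 6.13 and 5.85 TPM, overlapping each other, while Zfp532 had 0.940, 2.51 and 1.79 TPM and missed the threshold in replicate 1. Zmynd8 itself, the reader protein of the module, had 23.4, 29.6 and 26.1 TPM. Zfp827, which recruits the NuRD complex to telomeres, had 0.570, 0.660 and 1.02 TPM, and Zfp462 had 0.340, 0.350 and 0.310 TPM.

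Of 9 imprint and retroelement silencers 7 were detected, with a list median of 3.80 TPM. Both known imprint-maintaining KRAB proteins are on the list and lay far apart. Zfp445 is given above, at 39.4 TPM ± 11.5 on average, and Zfp57, the embryonic imprint factor, had 0.18, 0.0800 and 0.10 TPM. Zfp638 was the highest gene of the list. Zfp932, which represses endogenous retroviruses, had 8.92, 13.3 and 11.6 TPM, and Zfp738 and Zfp429 had 3.70, 6.56 and 4.92 TPM and 3.21, 3.89 and 4.29 TPM. Zfp809, which recognises the primer binding site of murine leukaemia viruses, had 2.72, 4.36 and 3.5 TPM. The levels of 4 detected silencers were more than 2 times higher by the second quantification, at 61.5 against 3.53 TPM for Zfp809, 20.6 against 5.06 TPM for Zfp738, 12.5 against 3.80 TPM for Zfp429 and 4.79 against 1.94 TPM for Zfp568. Zfp568, a KRAB protein that silences a placental Igf2 promoter, had 1.56, 1.90 and 2.35 TPM, and Zfp708 had 0.10, 0.110 and 0 TPM.

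Of 9 genes that act on RNA, ribosomes, the spindle or SUMO 8 were detected, with a list median of 9.44 TPM. Zfp207 was the highest. Zfp451, a SUMO ligase, had 16.1, 27.8 and 21.8 TPM and Zfp326, a subunit of the DBIRD complex that links elongation with splicing, had 16.4, 24.8 and 23.4 TPM. These genes overlapped in their ranges and were both lowest in replicate 1. Zfp622, a factor of large ribosomal subunit maturation, had 13.7, 17.3 and 15.5 TPM, and Zfp598, a ubiquitin ligase that senses collided ribosomes, had 7.38, 7.83 and 9.03 TPM. Zfp106, an RNA-binding protein needed by motor neurons, had 5.31, 10.9 and 12.1 TPM, with replicate 1 below both others. Zfp346, which binds double-stranded RNA, had 5.58, 6.07 and 5.24 TPM, Zfp277 had 2.33, 5.47 and 2.58 TPM, and Zfp593, a ribosome biogenesis factor, had 0.210, 0.720 and 0.310 TPM.

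Of 5 immune and signalling factors 3 were detected. Zfp91, a ubiquitin ligase of non-canonical NF-kB signalling, had 7.37, 10.9 and 9.48 TPM. Zfp335, a nuclear receptor coactivator subunit needed for T cell maturation, had 7.06, 8.50 and 9.22 TPM, and Zfp318, which controls IgD transcripts in B cells, had 5.81, 5.72 and 6.51 TPM. Zfp91 and Zfp335 overlapped, and Zfp318 lay below both. Zfp366 (DC-SCRIPT), a dendritic cell factor, had 0.0200, 0.010 and 0.0200 TPM, and Zfp30 was listed at 0, 0.0200 and 0 TPM. By the second quantification Zfp30 had 4.66, 4.31 and 4.99 TPM, above the threshold in every library. Of 9 pluripotency and lineage factors 3 were detected. These were Zfp703, a corepressor studied in breast tissue, with 13.5, 19.2 and 20.2 TPM, Zfp746 (PARIS), a repressor of Ppargc1a, with 5.86, 11.7 and 8.85 TPM, and Zfp467. The others did not reach 1 TPM in any library, and Zfp42 (Rex1), a marker of embryonic stem cells, was listed at 0 in all 3, and at 0.305, 0.606 and 0.678 TPM by the second quantification.

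**Figure D2:**
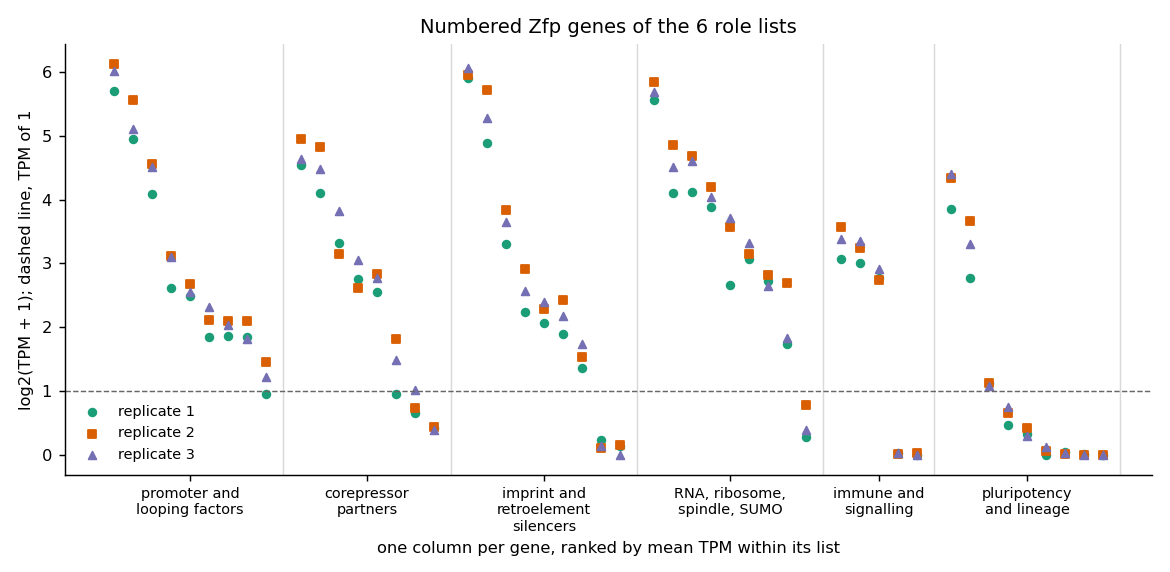
Levels as log2(TPM + 1) of the numbered Zfp genes on the 6 role lists, 1 column per gene and 1 symbol per library, with the dashed line at 1 TPM. Each list holds genes on both sides of the threshold, and 6 of the 9 pluripotency and lineage factors lie below it in every library.

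Transcripts of the proteins that KRAB zinc fingers work through were also measured. Of 29 genes of the TRIM28 corepressor and histone H3 lysine 9 methylation machinery 27 were detected, with a list median of 8.22 TPM. The background was 35.9% of all coding genes, and this list too was chosen by known role. Trim28, the corepressor itself, had 6.49, 9.35 and 8.83 TPM, and Setdb1, the methyltransferase it recruits, had 2.88, 4.29 and 4.76 TPM. Both were below Zfp445 in every library. The 6 highest genes of the list were Chd4, the NuRD remodeler, with 134, 147 and 168 TPM, Atrx, a remodeler of heterochromatin, with 106, 131 and 115 TPM, Dnmt3a, a DNA methyltransferase, with 50.3, 56.7 and 53.5 TPM, Morc3 with 36.9, 59.9 and 52.5 TPM, Hdac1, a histone deacetylase, with 41.8, 39.5 and 46.0 TPM, and Ehmt2 (G9a) with 30.8, 37.1 and 37.5 TPM. Suv39h1 and Uhrf1 missed the threshold in 1 library each. In the isoform test described below, 6 of the 22 tested genes of this list had retained-intron isoforms higher and 11 had coding isoforms higher, against backgrounds of 35.5% and 31.9% over all genes tested. These calls are by the summed TPM of the gene table's program only, and the second quantification is not given for them.

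Replicate 2 was the highest library in 103 of 145 members (71.0%), against a background of 61.5% of detected coding genes, and replicate 1 was the lowest in 119 (82.1%), against 75.7% of the other detected coding genes. The level in replicate 2 exceeded the mean of replicates 1 and 3 by a median of 0.33 in members and 0.24 in the other detected coding genes, on the log2(TPM + 1) scale. By the second quantification this excess of members was not seen: the median was 0.20 in members and 0.20 in the others, and replicate 2 was highest in 97 members (66.9%), against 65.0% of the others. Among members with a KRAB-like match, 50 of 62 (80.6%) were highest in replicate 2 with a median difference of 0.42, and among members without it 53 of 83 (63.9%) with 0.23. By CPM the median differences were 0.40 with the match, 0.14 without it and 0.11 in the other detected coding genes, and by the second quantification 0.30, 0.14 and 0.20. With 3 libraries of 1 group these are descriptions. Replicate 2 had the least starting RNA and replicate 1 the most, and the part of that in these differences cannot be told apart from other differences between the libraries.

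**Figure D3:**
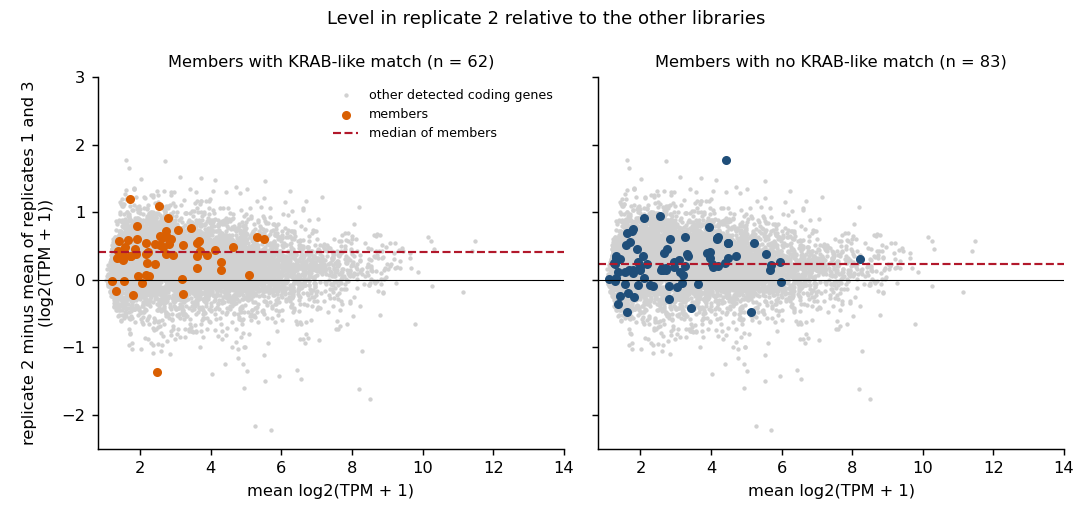
Replicate 2 minus the mean of replicates 1 and 3, in log2(TPM + 1), against the mean level. Coloured points are members with a KRAB-like match (left) and without it (right), grey points the other detected coding genes, and the dashed line is the median of the coloured points, 0.42 on the left and 0.23 on the right.

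The SD of log2(TPM + 1) between libraries had a median of 0.27 in members and 0.25 in the other detected coding genes. It was largest in Zfp236, at 1.04, with 11.1, 47.0 and 15.5 TPM. In replicate 2, 32.1 TPM of Zfp236 stood in a processed transcript of 156 bases, Zfp236-207, which was listed at 0 in the other libraries. The second quantification gave that transcript 4.2, 5.52 and 0 TPM and the gene a mean of 22.4 TPM. Zfp972 had the next largest SD, 0.87, with 4.91, 1.94 and 8.77 TPM from only 10, 9 and 12 expected counts. Most of its level in replicates 1 and 3 came from a coding transcript of 192 bases listed at 0 in replicate 2. Zfp386 had 1.39, 4.74 and 1.62 TPM, Zfp709 had 3.18, 8.59 and 3.86 TPM, and Zfp931 had 4.17, 10.8 and 8.79 TPM. In Zfp386 and Zfp709 replicate 2 stood apart from both others, and in Zfp931 replicate 1 did. The smallest SDs were those of Zfp995, Zfp768 and Zfp467, whose levels are given above. Zfp995 had only 16, 27 and 20 expected counts, and 10.4, 17.3 and 11.7 TPM by the second quantification.

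Isoforms of the same gene were compared next, since chromatin RNA holds transcripts that still carry introns. In such RNA, the level of a retained-intron isoform cannot be told apart from that of transcripts not yet spliced. For each gene the summed TPM of its annotated retained-intron isoforms was set against that of its protein-coding isoforms, as log2 of the ratio with 0.5 TPM added to each, and tested against 0 with limma over all 5601 genes that had both classes and a summed mean of at least 1 TPM. At a Benjamini-Hochberg adjusted p under 0.05, retained-intron isoforms were higher in 20 of the 81 members tested (24.7%) and coding isoforms in 39 (48.1%), while 22 passed in neither direction. The background was 35.5% with retained-intron isoforms higher and 31.9% with coding isoforms higher. The median log2 ratio was -0.28 in members and 0.08 in all genes tested.

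This split depended on how isoforms were added up and counted. By the second quantification 32 members had retained-intron and 30 had coding isoforms higher, with a median of -0.11. These are 39.5% and 37.0% of the 81 members, against backgrounds of 46.7% and 32.4% and a median of 0.30 in all genes tested. With the mean TPM per annotated transcript of each class in place of the sum, 36 of 72 members had retained-intron isoforms higher and 11 coding isoforms, with a median of 0.48. These are 50% and 15.3%, against backgrounds of 47.6% and 24.3% and a median of 0.38 in all genes. The median of all genes itself shifted by 0.22 and 0.30 under these alternatives. Relative to all genes, the members' median stood at -0.36 with the sum, at -0.41 by the second quantification and at 0.10 with the mean per transcript. Members called the same way by all 3 numbered 23, of which 15 had retained-intron and 8 had coding isoforms higher. Only the 72 members tested with the mean per transcript could be called by all 3. The share of all genes called the same way is not given here, so this count stands without a background.

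By the sum, Zfp326 had the largest ratio in favour of retained introns. Its retained-intron isoforms had 15.1, 23.8 and 21 TPM and its coding isoforms 0.660, 0.120 and 0.40 TPM, a log2 ratio of 4.54 (SE 0.27, limma adjusted p = 2.74e-06). The ratio was smaller by the second quantification, at 2.91, and with the mean per transcript, at 2.69, and remained past the threshold. By the second quantification Zfp330 at 3.67, Zfp809 at 3.28, Zfp868 at 3.27, Zfp369 at 3.24 and Zfp945 at 2.92 had larger ratios. Of these, Zfp868 and Zfp369 had passed in neither direction by the sum, and Zfp809 had been called for coding isoforms. Zfp945, a KRAB zinc finger gene, had 5.68, 6.83 and 11.0 TPM in retained-intron isoforms against 0.720, 0.580 and 0.860 TPM in coding isoforms, a log2 ratio of 2.73 (SE 0.21, limma adjusted p = 1.08e-05). Zfp330, which had no C2H2 match, had 8.95, 16.5 and 11.2 TPM against 1.13, 1.56 and 1.52 TPM, a log2 ratio of 2.70, which was 0.87 with the mean per transcript. In all 3 genes every library of the retained-intron class lay above every library of the coding class. The next ratios were 1.64 for Zfp26, 1.51 for Zfp653 and for Zfp622, 1.49 for Zfp523 and 1.32 for Zfp638, all with the same call by all 3 ways of counting, although Zfp26 stood at 0.55 by the second quantification. In Zfp638 this meant 39.8, 37.3 and 42.0 TPM in retained-intron isoforms against 14.1, 16 and 16.7 TPM in coding isoforms.

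With 0.5 TPM added, coding isoforms were furthest ahead in Zfp407. Its retained-intron isoforms had 3.30, 4.54 and 3.76 TPM and its coding isoforms 31.2, 33.4 and 37.9 TPM, a log2 ratio of -2.99 (SE 0.15, limma adjusted p = 1.40e-06). This order depended on the TPM added: with 0.1 TPM, Zfp592 at -3.56, Zfp382 at -3.52 and Zfp426 at -3.50 had lower ratios than Zfp407 at -3.12. It also depended on the quantification: by the second, Zfp395 at -3.14 lay below Zfp407 at -3.03, as did Zfp219, taken up below. In Zfp382 retained-intron isoforms had 0.740, 0.210 and 1.01 TPM against 5.94, 7.98 and 8.79 TPM in coding isoforms. Zfp451 had 1.67, 3.05 and 1.80 TPM against 11.9, 20.4 and 15.9 TPM, a log2 ratio of -2.64, which shrank to -0.79 by the second quantification. The 2 classes did not overlap in any of these 3 genes. The single retained-intron isoform of Zfp219 was listed at 0 in every library, and those of Zfp143 were listed at 0 in replicates 1 and 3, so no ratio is given for them and their place in this order depends on the TPM added. Those of Zfp592 were listed at 0 in replicate 3 and those of Zfp426 in replicate 1. Zfp592 stood at -2.37 by the sum and at -0.55 by the second quantification. The ratio of Zfp950, -2.23 by the sum, lost its call with the mean per transcript, at -0.19. Zfp263, at -1.63, was called for coding isoforms by all 3 ways of counting. It had 65.0, 86.6 and 57.6 TPM in its only retained-intron isoform against 126, 171 and 114 TPM in Zfp263-207 and 74.3, 70.0 and 89.4 TPM in Zfp263-201, both coding.

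In the list of genes that act on RNA, ribosomes, the spindle or SUMO, 4 of 7 tested had retained-intron isoforms higher and 2 coding isoforms. In the list of imprint and retroelement silencers, 1 of 6 tested had retained-intron isoforms higher and 4 coding isoforms. The backgrounds over all genes tested were 35.5% and 31.9%. The members of the first list with retained-intron isoforms higher were Zfp326, Zfp622, Zfp346 and Zfp598, at 1.29 for Zfp346 and 0.61 for Zfp598. The call of Zfp598 was lost by the second quantification, with a ratio of 0.39 in the same direction and an adjusted p of 0.0513 in limma, and held with the mean per transcript, at 1.42. Of the silencers, Zfp445 had a ratio of -1.17 by the sum and -0.86 by the second quantification, but 0.35 with the mean per transcript. Zfp932 stood at -1.53 by the sum, at -0.11 by the second quantification and at 0.70 with the mean per transcript, and Zfp738 at -0.61, -1.07 and 1.06. The direction in these 3 silencers thus turned with the way of counting.

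Of the members with a KRAB-like match 2 of 28 had retained-intron isoforms higher (7.14%) and 16 had coding isoforms higher (57.1%), with a median of -0.66. Of the members without it these were 18 and 23 of 53 (34.0% and 43.4%), with a median of -0.21. Over all genes tested the shares were 35.5% and 31.9%, with a median of 0.08. By the second quantification the counts were 9 and 12 with the match against 23 and 18 without it, and with the mean per transcript 12 and 2 of 25 against 24 and 9 of 47. As shares of the summed member TPM, retained-intron isoforms took 23.7% ± 0.804 in members (SD, n = 3) and 39.7% ± 1.72 in the other detected coding genes, and coding isoforms 66.9% ± 1.45 in members and 47.8% ± 1.54 in the others. Without Zfp263 the members' shares were 23.8% and 65.7%. A retained-intron transcript is annotated for 82 members (56.6%) and for 67.7% of the other detected coding genes. Genes without one add nothing to the retained-intron share and cannot have such a transcript as their highest. The part of annotation in the differences was not tested. The same isoform class held the highest transcript in all 3 libraries in 117 members, of which 89 were led by a coding, 25 by a retained-intron and 3 by a processed transcript. These are 61.4%, 17.2% and 2.07% of members, against 49.2%, 22.4% and 4.33% of the other detected coding genes.

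**Figure D4:**
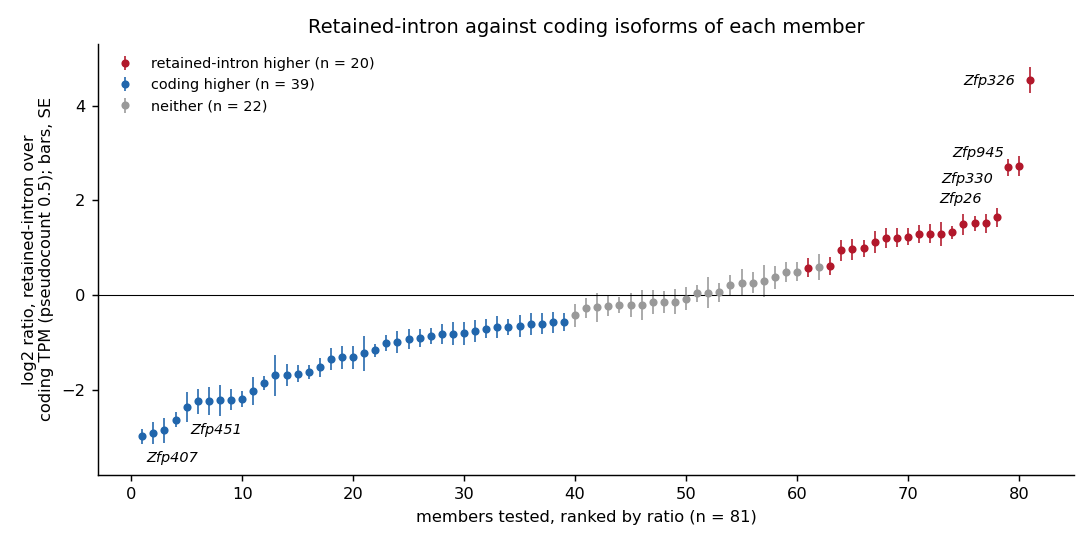
The log2 ratio of retained-intron over coding TPM in each of the 81 members tested, ranked, with its SE as a bar; red and blue points passed the test and grey points did not. Zfp326 at 4.54 stands apart at the upper end, and 39 members lie at the lower end with coding isoforms higher.

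The second quantification of the same libraries, whose columns carry other names and an estimated count, gave higher levels for most members. It was above the gene table in 133 of 145 members (91.7%), with a median difference of 0.42 in members and 0.59 in the other detected coding genes on the log2(TPM + 1) scale. It was at least 2 times the gene table in 39 members (26.9%), close to the background of 29.5%. It put all 145 members and a further 86 numbered Zfp genes at 1 TPM or more in every library. Genes that pass the threshold by it thus number 231.

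The largest gap was in Zfp180, with 131 TPM ± 29.1 by the second quantification and 2.80 TPM ± 0.959 in the gene table (SD, n = 3 each). Nearly all of it stood in Zfp180-203, a nonsense-mediated decay transcript of 827 bases, with 98.9, 155 and 129 TPM by the second quantification and 0 in every library of the gene table's program. That transcript shared no 31-base word with another gene. Zfp809 had 61.5 TPM ± 8.65 against 3.53 TPM ± 0.82, and its retained-intron transcript Zfp809-202, of 597 bases, had 64.9, 47.6 and 50.9 TPM against 0.170, 1.13 and 0.530 TPM. The isoform ratio of Zfp809 was 3.28 by the second quantification and -1.32 by the first, both past the threshold. Zfp949 and Zfp212 were the other members called in opposite directions, at 0.72 and -1.32 and at 0.66 and -0.81, again with the second quantification first. Zfp369 had 36.3 TPM ± 1.63 against 5.87 TPM ± 1.78, with the excess in a retained-intron transcript of 1815 bases. Zfp995 had 13.1 TPM ± 3.67 against 1.32 TPM ± 0.00577, and Zfp668 12.1 TPM ± 1.33 against 1.43 TPM ± 0.236. On the other side the gaps were small, at -0.24 for Zfp971, -0.20 for Zfp397, -0.15 for Zfp263 and Zfp281 and -0.14 for Zfp292, in log2(TPM + 1). Which quantification is nearer to the RNA present was not tested.

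**Figure D5:**
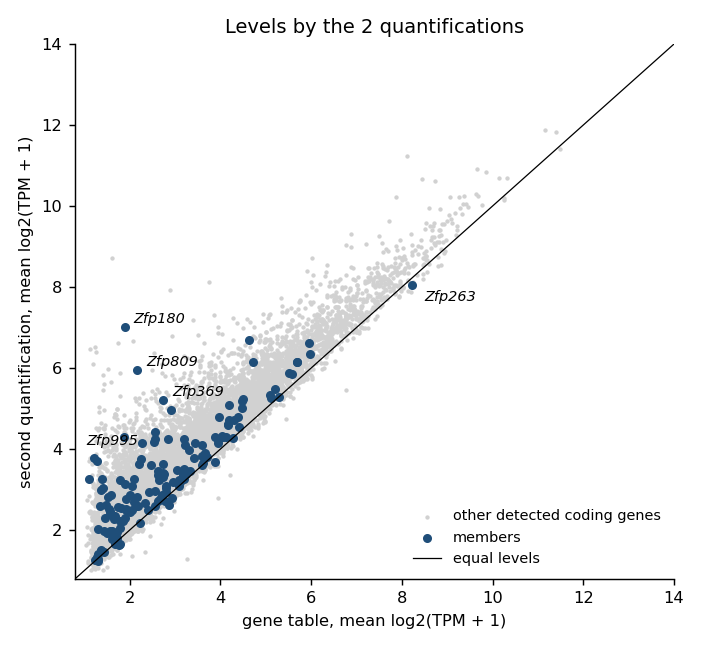
Mean log2(TPM + 1) by the second quantification against that of the gene table, for members (dark points) and the other detected coding genes (grey points), with the line of equal levels. Zfp180 and Zfp809 lie far above the line, and Zfp263 lies just below it.

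The members lay on 20 chromosomes, with the most on chromosome 7, where 30 of 88 numbered Zfp coding genes were detected (34.1%). Chromosome 17 followed with 14 of 41 and chromosome 2 with 12 of 25, while chromosome 4 held 6 of 30 (20.0%). With a gap of at most 500 kb between neighbouring starts, 64 of the 145 members fell into 23 runs. The longest runs had 5 members each, and there were 4 of them. On chromosome 6 (47835661 to 48445825) Zfp398, Zfp212, Zfp777, Zfp746 and Zfp467 had mean levels of 1.16 to 8.81 TPM and no KRAB-like match. The pattern may have missed a divergent KRAB box in these 5 genes. The run on chromosome 17 (21535539 to 22071168), Zfp52, Zfp948, Zfp995, Zfp942 and Zfp943, had 1.32 to 6.33 TPM, and all 5 held the match. On chromosome 7 the runs were Zfp768, Zfp747, Zfp629, Zfp668 and Zfp646 (127342795 to 127885996), at 1.42 to 7.57 TPM, and Zfp84, Zfp568, Zfp260, Zfp382 and Zfp146 (29768552 to 30169750), at 1.89 to 8.22 TPM. These ranges depended on the quantification: by the second they were 4.17 to 10.1 TPM on chromosome 6, 5.13 to 13.1 TPM on chromosome 17, and 1.55 to 12.1 TPM and 2.82 to 18.2 TPM on chromosome 7. In the chromosome 17 run Zfp995 was the lowest member in the gene table and the highest by the second quantification. The run from Zfp84 to Zfp146 held 15 numbered Zfp coding genes, of which the 5 members were detected.

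Shared sequence varied widely between the runs. The run Zfp970, Zfp972, Zfp971 and Zfp931 on chromosome 2 shared a median of 68.7% of 31-base words with other genes, against 0.996% in the chromosome 6 run. Zfp968 shared 97.3% and had 1.15, 3.09 and 2.42 TPM, and Zfp966, with the same coding sequence, shared 93.9% and had 3.43, 7.01 and 4.89 TPM. Zfp966 was the higher in every library. Zfp991 had 21.8, 30.2 and 20.8 TPM and Zfp992 13.9, 20.2 and 15.4 TPM, and by the second quantification Zfp991 had 86.9, 140 and 90.2 TPM and Zfp992 17.9, 23.2 and 15.9 TPM. A detected gene on the opposite strand overlaps 24 of the 145 members. The strand setting was not given in the sources used here. Where such members and their partners overlap, their reads may therefore not be told apart.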

How the data were processed

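The 3 chromatin-fraction libraries of 1 group were analysed, and every comparison is between genes or isoforms within them. Per the labels the assembly was mm10, and the deposited text files gave the GENCODE annotation M21. The programs, their versions and the strand setting were not given in the sources used here. The authors deposited expected counts and TPM per gene and transcript under column names that RSEM writes, with interval bounds of TPM as a signal column that was read only for a description. A second deposited transcript table holds estimated counts and TPM under column names that kallisto writes, and its TPM was summed per gene. Symbols and transcript types came from that table, which names 55450 genes. Of all expected counts, 1.4452% in replicate 1, 0.3945% in replicate 2 and 0.3958% in replicate 3 lay on rows that name no gene, which stayed out of gene totals.

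Members are symbols of Zfp and digits other than Zfp36, with a protein-coding transcript and TPM of at least 1 in all 3 libraries. Means are given with the SD over 3 libraries. The isoform test used limma 3.58.1 in R 4.3.3 (intercept only, variance trend on the mean summed TPM, 0.5 TPM added) with Benjamini-Hochberg adjustment over all genes tested. On simulated data for 5580 genes of that test, 92% of genes at a log2 ratio of -1 and 98% at 1 were recovered, 100% at -2 and at 2, and 3.94% of calls were false. The simulation gave every gene the same spread and most genes no true difference, with no error in assigning reads to isoforms. These rates hold for that setting only and do not measure errors among the calls above. Coding sequences were translated from the M21 transcripts, the longest per gene, with the KRAB-like match sought in all of them, and shared sequence was measured with words of 31 bases over all M21 transcripts. Library pairs differed beyond counting noise, with a chi-square per degree of freedom of 11.0 to 26.2. Python was 3.11.15, numpy 2.4.6, pandas 2.3.3, scipy 1.17.1 and matplotlib 3.10.9.

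The members, the lists and the tests were chosen with earlier results of these data known. The text names the 10 highest and 5 lowest members, the 5 nearest the threshold on each side with a tied gene, and the 5 most and 3 least variable. It names the 8 highest and 8 lowest isoform ratios among those past the threshold, and the 5 largest differences between quantifications each way. All genes of the role lists, the 6 highest of the machinery list and the longest runs of neighbours are named too. So are the 3 members with the most fingers and the 4 that tied for the fewest. Trim28, Setdb1, Suv39h1, Uhrf1, Zmynd8, Zfp212, Zfp949, Zfp966, Zfp968, Zfp991, Zfp992 and the isoforms of Zfp263 were added after their values were seen.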

Additional observations from a re-analysis of the deposited data

How the results depend on the processing

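The number of members was 145, and 231 by the second quantification and 225 with at least 10 expected counts as the threshold. The median level of members, 2.55 in log2(TPM + 1), was 3.26 by the second quantification, and the median SD between libraries, 0.27, was 0.21 in log2(CPM + 1) and 0.20 by the second quantification. Retained-intron isoforms were higher in 20 members by the sum, in 32 by the second quantification and in 36 with the mean per transcript. Coding isoforms were higher in 39 members, in 22 with a summed TPM of at least 5 and in 11 with the mean per transcript. Over all genes tested, 1987 had retained-intron isoforms higher, and 3200 by the second quantification, while 1785 had coding isoforms higher, 1116 with a summed TPM of at least 5 and 1123 with the mean per transcript. The members' median ratio of -0.28 was -0.11 by the second quantification, -0.47 with 0.1 TPM added and 0.48 with the mean per transcript, and ran from -0.46 to -0.31 with 1 library left out. The number of genes tested also differed between these settings, so the raw counts do not compare directly. The higher filter and the mean per transcript tested fewer members and fewer genes, with 72 members by the mean per transcript in place of 81. The second quantification also tested 81 members but more genes over all. Shares of the genes tested for the second quantification and the mean per transcript are given with the isoform test above. The cause of the changes was not tested. The 8 highest and 8 lowest isoform ratios gave 152 values under other settings. Of these, 151 kept their direction and stayed past the threshold, and only Zfp950 with the mean per transcript did not. A gene that did not pass the filter of a setting gave no value there. This held for Zfp219, Zfp143 and Zfp426 with a summed TPM of at least 5 and with the mean per transcript. It also held for Zfp592 and Zfp523 with a summed TPM of at least 5. The direction of Zfp219 was fixed in advance, as its only retained-intron isoform was listed at 0 in every library. That of Zfp143 was listed at 0 in replicates 1 and 3 by the first quantification. These 16 genes were picked as the most extreme calls of the same fit, so the tally does not extend to the other members. The mean per transcript tested only 72 of the 81 members, and 23 had the same call by all 3 ways of counting. The counts of members and of KRAB-like members highest in replicate 2, 103 and 50, were 95 (65.5%) and 52 in CPM and 97 (66.9%) and 48 by the second quantification, against 53.2% and 65.0% of the other detected coding genes, alternatives chosen after seeing the data. No paired analysis was possible because the labels give 1 group.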
